A study of Caenorhabditis elegans with 6 samples.

Results

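Aminoacyl-tRNA synthetases were examined in embryos of *C. elegans* after RNAi against *pri-1*, which encodes a subunit of DNA primase. Members were chosen by name: every gene of the deposited table whose symbol is the letter of an amino acid followed by "ars" and a number, which gave 32 of 19933 genes. Each synthetase joins 1 amino acid to its tRNAs, and the charged tRNAs are what a ribosome reads codons with. The enzymes fall into class I and class II, which differ in the fold of the catalytic domain. Cytosol and mitochondria make protein separately, so that many amino acids have one gene for each compartment, while a few genes serve both. By name and general knowledge 21 of the genes were placed in a cytosolic class and 11 in a mitochondrial class. In the worm the numbers of the alanine genes are swapped: *aars-2* is cytosolic and *aars-1* mitochondrial. *gars-1*, *hars-1*, *kars-1* and *tars-1* have no separate mitochondrial gene known and were kept in the cytosolic class. The reference annotation names no compartment for any of these genes, and *vars-1* was also kept in the cytosolic class. The class medians, sums and counts of calls are also given with *vars-1* among the mitochondrial genes.

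The RNA-seq had 3 libraries of *pri-1* RNAi embryos and 3 libraries of EV (empty vector) RNAi embryos. Both groups were wild type (strain N2). Their hermaphrodite mothers were fed the RNAi bacteria from the L1 larval stage for 96 hours at 20 °C, and the laid eggs were collected as whole populations, so that each library is a mixture of embryonic stages and cell types. In such bulk samples, fewer cells of a type and less RNA per cell cannot be told apart. The paper reports that embryos of *pri-1* RNAi mothers do not hatch and stop developing before morphogenesis. A difference in stage between the groups therefore cannot be told apart from other effects of the RNAi. The labels do not say whether the libraries came from separate cultures, though the paper counts them as experiments, and p-values measure only the spread between these libraries. Values are CPM, a gene's reads relative to a library total of 1000000 reads. Fold changes are of CPM + 0.5, *pri-1* RNAi over EV, with moderated standard errors (SE) from limma and Benjamini-Hochberg adjusted p-values over the 14801 genes that reached 0.5 CPM in 3 libraries or more, and a gene is said to have risen or fallen where the adjusted p was under 0.05. All 32 synthetase genes passed this filter, with 1.45 CPM (*lars-2*, EV replicate 3) as the lowest value of any of them.

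The targeted gene *pri-1* had 28.6, 28.7 and 24.3 CPM in *pri-1* RNAi embryos, against 41.2, 47.2 and 26.9 CPM in EV embryos, a log2 fold change of -0.46 ± 0.29 (SE, adjusted p = 0.285), so that its lower level did not pass the test. Estimated depth was 129240343 to 162069406 reads in the *pri-1* RNAi libraries and 122751288 to 153289806 in the EV libraries, where 3 reads are 0.0185 to 0.0244 CPM and counting error is small for every synthetase. The first principal component held 62.2% of the variance and separated the groups, and the second held 30.1% and parted EV replicate 2 from EV replicate 3. The summed level of 9 maternal embryo markers was 244 to 376 CPM in *pri-1* RNAi and 62.2 to 169 CPM in EV embryos, with 2 of the 9 higher, and that of 9 early zygotic markers was 16.9 to 46.5 CPM in *pri-1* RNAi and 5.29 to 10.7 CPM in EV embryos, with 3 of 7 tested higher. All 9 maternal estimates were positive (median log2 fold change 1.15), as were 6 of the 7 early zygotic ones (median 1.08). Beside these counts and those of the markers below, 17.3% of all genes tested were higher and 9.94% lower. Muscle markers (7 genes, 0 called) summed to 1815 to 3841 CPM in *pri-1* RNAi and 2196 to 5262 CPM in EV embryos, and gut markers (5 genes, 0 called) to 659 to 1331 CPM in *pri-1* RNAi and 826 to 1477 CPM in EV embryos. Epidermal markers (6 genes, 2 lower) summed to 793 to 882 CPM in *pri-1* RNAi and 1122 to 1348 CPM in EV embryos, and neuronal markers (7 genes, 1 higher and 1 lower) to 1000 to 1250 CPM in *pri-1* RNAi and 852 to 929 CPM in EV embryos. Although the neuronal sum was higher, 6 of the 7 neuronal estimates were negative, with a median log2 fold change of -0.74. All 7 muscle estimates (median -0.45) and all 5 gut estimates (median -0.17) were negative. Of the 6 epidermal estimates, 3 were negative and 3 positive (median -0.27). Markers of the mother (yolk proteins and adult collagens, 8 genes, 0 called) summed to 35.2 to 73.7 CPM in *pri-1* RNAi and 47.4 to 821 CPM in EV libraries, the highest in EV replicate 1. All 8 of their estimates were negative (median -1.72). Sperm markers (31 genes, 2 tested, 0 called) summed to 8.94 to 11.4 CPM in *pri-1* RNAi and 1.87 to 15.9 CPM in EV libraries. None of these markers was at 0 in every library, and their part in the synthetase results was not tested.

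The cytosolic synthetases were the members that rose. Of the 21, 9 were higher in *pri-1* RNAi embryos, by 1.58- to 2.87-fold, and 0 were lower, where 17.3% of all genes tested rose and 9.94% fell. Their median log2 fold change was 0.66, against -0.01 over all genes tested, and 16 of the 21 estimates were positive. In 13 of the 21 the lowest *pri-1* RNAi library lay above the highest EV library, which held for 25.4% of all genes. All but *vars-1* averaged at least 50 CPM, and among the 3937 genes at that level 12.9% rose. Summed over the class, the level was 5651, 4642 and 5648 CPM in *pri-1* RNAi embryos (5314 ± 582, SD, n = 3), against 2884, 2887 and 3265 CPM in EV embryos (3012 ± 219). The groups did not overlap, which gives the exact two-sided permutation test its smallest possible p at this sample size (0.1).

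**Figure D1:**
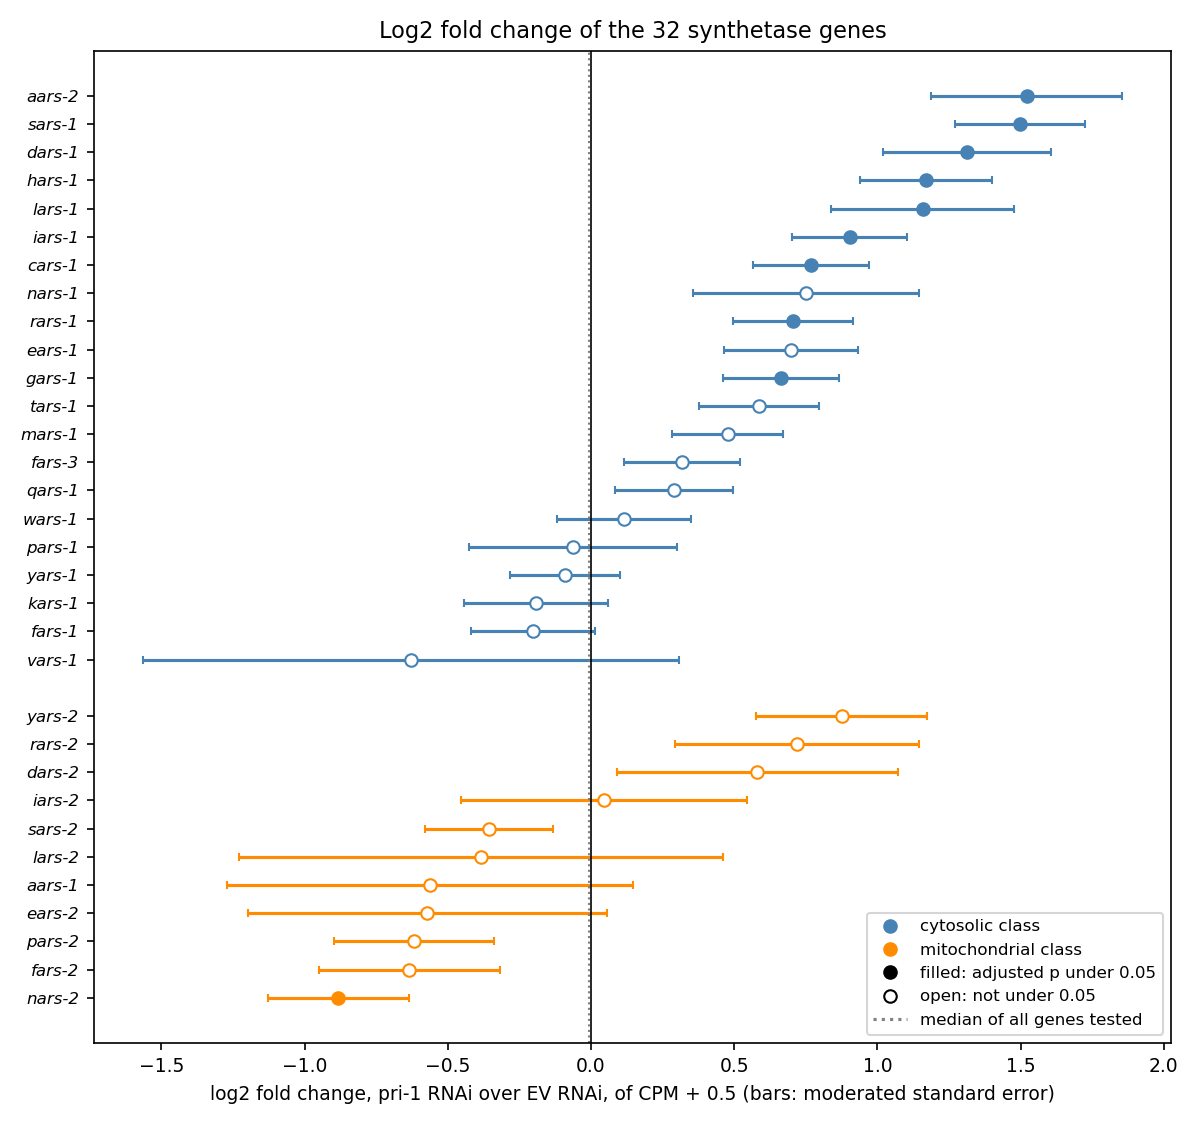
Log2 fold change of CPM + 0.5 (x axis, *pri-1* RNAi over EV RNAi) for each of the 32 synthetase genes (y axis), with cytosolic genes in blue above mitochondrial genes in orange, bars for the moderated SE and filled points for adjusted p under 0.05. Of the cytosolic genes 9 are filled, from 0.66 for *gars-1* to 1.52 for *aars-2*, and of the mitochondrial genes *nars-2* alone, at -0.88.

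The count of 9 depended on single libraries and on scaling. Leaving out *pri-1* RNAi replicate 1 gave 2 (beside 12% of all genes higher), leaving out its replicate 3 gave 1 (9.71%) and leaving out EV replicate 1 gave 2 (11.6%). The genes that passed were *hars-1* and *sars-1* without replicate 1 of either group, and *sars-1* alone without *pri-1* RNAi replicate 3. With replicate 2 of that group left out there were 6 (15.8%), with *gars-1*, *lars-1* and *rars-1* lost, without EV replicate 2 there were 8 (19.3%), with *gars-1* lost, and without EV replicate 3 there were 9 (17%), with *rars-1* lost and *nars-1* gained. Among the 7 called genes other than *hars-1* and *sars-1*, the largest adjusted p with 1 library left out was between 0.0707 (*aars-2*) and 0.222 (*gars-1*). With a trimmed-mean scaling factor for each library it was 4 (*hars-1*, *iars-1*, *lars-1* and *sars-1*, beside 18.3% of all genes), and with median centring 5 (21.7%). The median of the class stayed between 0.43 and 0.70 with any 1 library left out, and 0 cytosolic genes fell in any of the 17 other fits. The 0.43 came without EV replicate 2, where the median over all genes was 0.20, against -0.01 in the reported fit. The 0.70 came without *pri-1* RNAi replicate 2, where the median over all genes was 0.07. After trimmed-mean scaling, the summed level was 4893, 4971 and 5621 CPM in *pri-1* RNAi embryos, against 2721, 2221 and 4873 CPM in EV embryos, and 8 of the 21 genes had the *pri-1* RNAi libraries wholly above, beside 24.4% of all genes. EV replicate 3 was the library that came close to the *pri-1* RNAi embryos on that scale.

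Among the class II enzymes of the cytosol, 5 of 11 rose, beside 17.3% of all genes. *sars-1*, the seryl-tRNA synthetase gene (chromosome IV, 10003726 to 10005578, plus strand, WBcel235), had 892, 685 and 899 CPM in *pri-1* RNAi embryos, against 231, 320 and 329 CPM in EV embryos. Every *pri-1* RNAi library was more than double every EV library, with a log2 fold change of 1.50 ± 0.23 (SE, adjusted p = 0.0033). *sars-1* was the only synthetase gene past the threshold in all 17 other fits. *aars-2*, the cytosolic alanyl-tRNA synthetase gene (chromosome I, 3983183 to 3986581, plus strand), had 784, 658 and 874 CPM in *pri-1* RNAi embryos, against 253, 174 and 431 CPM in EV embryos. The *pri-1* RNAi libraries were all higher, while EV replicate 3 stood above the other EV libraries. The log2 fold change was 1.52 ± 0.33 (SE, adjusted p = 0.0138), and 12 of the 17 other fits called it.

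*dars-1* encodes the aspartyl-tRNA synthetase (chromosome III, 9489176 to 9491215, minus strand). It had 498, 451 and 580 CPM in *pri-1* RNAi embryos, against 202, 140 and 298 CPM in EV embryos, a log2 fold change of 1.31 ± 0.29 (SE, adjusted p = 0.0146). Its groups were apart as deposited and overlapped after trimmed-mean scaling. *hars-1*, the single histidyl-tRNA synthetase gene (chromosome IV, 10858957 to 10861284, plus strand), had 336, 223 and 296 CPM in *pri-1* RNAi embryos, against 106, 130 and 140 CPM in EV embryos. Its log2 fold change was 1.17 ± 0.23 (SE, adjusted p = 0.0091), and it lost the call in 1 of 17 other fits, without *pri-1* RNAi replicate 3 (adjusted p = 0.0592). *gars-1*, the single glycyl-tRNA synthetase gene (chromosome III, 5159729 to 5163627, minus strand), had 140, 140 and 166 CPM in *pri-1* RNAi embryos, against 84.1, 90.6 and 107 CPM in EV embryos. Its groups were also apart as deposited and overlapped after trimmed-mean scaling. It was the weakest call (log2 fold change 0.66 ± 0.20, SE, adjusted p = 0.0454), kept in 6 of 17 other fits.

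Among the class I enzymes of the cytosol, 4 of 10 rose, beside 17.3% of all genes. *lars-1*, the leucyl-tRNA synthetase gene (chromosome III, 4181549 to 4186801, minus strand), had 395, 280 and 326 CPM in *pri-1* RNAi embryos, against 157, 216 and 95.2 CPM in EV embryos. The EV libraries spread more widely than the *pri-1* RNAi libraries and still lay below them all. The log2 fold change was 1.16 ± 0.32 (SE, adjusted p = 0.0319). *iars-1*, the isoleucyl-tRNA synthetase gene (chromosome IV, 10368601 to 10373136, plus strand), had 230, 199 and 241 CPM in *pri-1* RNAi embryos, against 120, 134 and 105 CPM in EV embryos. The libraries of each group were close together, and the log2 fold change was 0.90 ± 0.20 (SE, adjusted p = 0.0142).

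*cars-1*, the cysteinyl-tRNA synthetase gene (chromosome I, 2623099 to 2628577, minus strand), had 392, 298 and 357 CPM in *pri-1* RNAi embryos, against 232, 186 and 194 CPM in EV embryos. The groups were apart, with a log2 fold change of 0.77 ± 0.20 (SE, adjusted p = 0.0276). *rars-1*, the arginyl-tRNA synthetase gene (chromosome III, 4914088 to 4917177, minus strand), had 147, 116 and 135 CPM in *pri-1* RNAi embryos, against 78.5, 92.2 and 73.1 CPM in EV embryos. It too had groups that did not overlap, with a log2 fold change of 0.71 ± 0.21 (SE, adjusted p = 0.0412). Of the other fits, 13 called *lars-1*, 14 *iars-1*, 10 *cars-1* and 9 *rars-1*. Of the 10 synthetase genes called in either direction, 6 (*sars-1*, *dars-1*, *iars-1*, *cars-1*, *rars-1* and *nars-2*) overlap a gene on the opposite strand, and the library kit keeps the strand of the RNA.

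**Figure D2:**
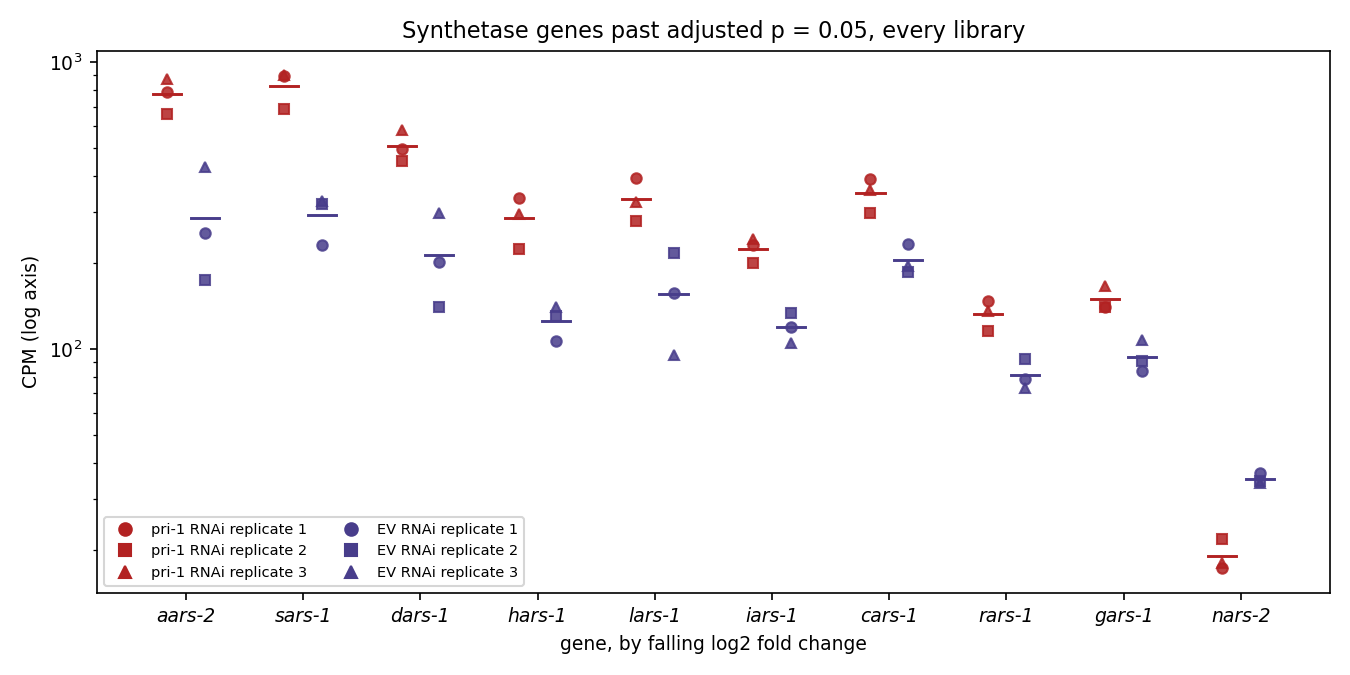
CPM on a log axis (y) of the 10 synthetase genes with adjusted p under 0.05 (x, by falling log2 fold change), with *pri-1* RNAi libraries in red left of EV RNAi libraries in blue-violet, a marker shape for each replicate and a line for the group mean. The red points lie above the blue-violet ones for 9 genes and below them for *nars-2*, with no overlap in any.

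The other 12 cytosolic genes did not pass the test. Closest to the threshold were *ears-1* (glutamyl, log2 fold change 0.70, adjusted p = 0.0624), *tars-1* (threonyl, 0.59, adjusted p = 0.0744) and *mars-1* (methionyl, 0.48, adjusted p = 0.11), whose groups were apart in the deposited CPM. *ears-1* overlaps *aph-2* on the same strand, where reads may be shared. The mitochondrial genes *pars-2* and *iars-2* also overlap a protein-coding gene on the same strand (*T27F6.6* and *C25A1.20*). *nars-1*, the cytosolic asparaginyl-tRNA synthetase gene, had 198, 161 and 232 CPM in *pri-1* RNAi embryos, against 102, 71.2 and 214 CPM in EV embryos (log2 fold change 0.75, adjusted p = 0.203). It was EV replicate 3 that overlapped, and without that library *nars-1* passed at 1.19 (adjusted p = 0.0122). Estimates close to 0 were found for *wars-1* (tryptophanyl, 0.12), *pars-1* (prolyl, -0.06), *yars-1* (tyrosyl, -0.09), *kars-1* (lysyl, -0.19) and *fars-1* (phenylalanyl, -0.20), with adjusted p between 0.536 and 0.92, and with median centring the last 4 turned positive. Between them and the genes that rose lay *fars-3* (0.32) and *qars-1* (glutaminyl, 0.29).

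Called genes were found in each of the groups of cytosolic synthetases compared here, where 17.3% of all genes tested rose. The median log2 fold change was 0.66 in class II and 0.59 in class I. In mammals 9 of these enzymes sit in a multi-synthetase complex, and their worm genes, grouped after their values were known, had 4 higher and a median of 0.70, against 5 of 12 and 0.63 for the other cytosolic genes. Of the 4 genes for which no separate mitochondrial gene is known, *hars-1* and *gars-1* rose while *tars-1* and *kars-1* did not pass. *cars-1*, *mars-1*, *qars-1*, *vars-1* and *wars-1* also had no partner in the mitochondrial class, and of these *cars-1* alone rose.

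*fars-1* and *fars-3* encode the subunits of 1 enzyme, the cytosolic phenylalanyl-tRNA synthetase. *fars-3* had 137, 113 and 126 CPM in *pri-1* RNAi embryos, against 105, 88.3 and 109 CPM in EV embryos, and the groups were apart. *fars-1* had 66.6, 60.8 and 67.9 CPM in *pri-1* RNAi embryos, against 77.03, 86.2 and 63.1 CPM in EV embryos, with overlap. Within each library, the log2 ratio of *fars-3* over *fars-1* was 1.04, 0.90 and 0.89 in *pri-1* RNAi embryos, against 0.44, 0.03 and 0.78 in EV embryos. The ratio, computed after the other values were seen, did not overlap between the groups and differed by 0.52 (exact two-sided permutation p = 0.1, the smallest possible with 3 libraries each).

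The mitochondrial synthetases were not among the members that rose. Of the 11, 0 rose and *nars-2* fell, beside 17.3% and 9.94% of all genes. The share that fell (9.09%) was thus close to that of all genes. Of the 11 estimates 7 were negative, with a median log2 fold change of -0.38. Their summed level was 316, 240 and 248 CPM in *pri-1* RNAi embryos (268 ± 41.6, SD, n = 3), against 321, 426 and 210 CPM in EV embryos (319 ± 108), so that the groups overlapped. The EV libraries spread widely: the highest was 2.85-fold the lowest in the median mitochondrial synthetase, against 1.37-fold in the median cytosolic one and 2.13-fold over all genes. Of the EV libraries, replicate 2 was the highest and replicate 3 the lowest in most of them. The median of the class was 0.15 without EV replicate 2 and -0.83 without EV replicate 3, so that its sign rested on single libraries. The median over all genes moved too, to 0.20 without EV replicate 2 and -0.23 without EV replicate 3.

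*nars-2*, the mitochondrial asparaginyl-tRNA synthetase gene (chromosome III, 11488353 to 11500747, minus strand), had 17.2, 21.8 and 17.9 CPM in *pri-1* RNAi embryos, against 36.9, 34.6 and 34.2 CPM in EV embryos. Unlike the rest of the class its EV libraries were nearly level, and every *pri-1* RNAi library was lower (log2 fold change -0.88 ± 0.25, SE, adjusted p = 0.0336). The call was lost without any 1 of the *pri-1* RNAi libraries or without EV replicate 1 (adjusted p = 0.0504 to 0.165). It was also lost with median centring, quantile normalization or a block by title number. The estimate stayed between -0.98 and -0.63 in every fit. Without EV replicate 3, *ears-2* and *pars-2* also passed as lower, in a fit where 20.2% of all genes did. *fars-2* and *pars-2* (phenylalanyl and prolyl) were the other genes of the class with every *pri-1* RNAi library below every EV library, at -0.63 and -0.62 (adjusted p = 0.179 and 0.144), beside 19.8% of all genes with groups apart in that direction.

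*yars-2*, the mitochondrial tyrosyl-tRNA synthetase gene, had 68.3, 51.2 and 64.2 CPM in *pri-1* RNAi embryos, against 38.03, 41.7 and 22.4 CPM in EV embryos. In the deposited CPM it was the 1 gene of the class whose *pri-1* RNAi libraries were all higher, beside 25.4% of all genes. The estimate for *yars-2* was 0.88 ± 0.30 (SE), which did not pass (adjusted p = 0.066). It passed with trimmed-mean scaling, median centring and quantile normalization and without EV replicate 2 (adjusted p = 0.0355 there). *rars-2*, the mitochondrial arginyl-tRNA synthetase gene, had 14.6, 10.3 and 12.5 CPM in *pri-1* RNAi embryos, against 7.93, 11.7 and 4.10 CPM in EV embryos (0.72, adjusted p = 0.256). After trimmed-mean scaling its *pri-1* RNAi libraries were all higher as well, beside 24.4% of all genes on that scale. The widest spread was in *lars-2* (leucyl), with 9.37, 2.89 and 3.85 CPM in *pri-1* RNAi embryos, against 7.43, 20.3 and 1.45 CPM in EV embryos, where no difference could be shown. *dars-2* (0.58), *iars-2* (0.05), *sars-2* (-0.36), *aars-1* (-0.56) and *ears-2* (-0.57) did not pass either.

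*vars-1* shared the spread of the mitochondrial genes, with 14.5, 5.57 and 5.70 CPM in *pri-1* RNAi embryos, against 12.1, 51.2 and 2.70 CPM in EV embryos. Moving it to that class gave medians of 0.68 for the cytosolic and -0.47 for the mitochondrial genes and changed no count of calls. The summed level was then 5305 ± 579 CPM in *pri-1* RNAi and 2990 ± 237 CPM in EV embryos for the cytosolic class, and 277 ± 46.7 CPM in *pri-1* RNAi and 341 ± 132 CPM in EV embryos for the mitochondrial class (SD, n = 3 each). The median EV spread of the mitochondrial class was 3.11-fold with it. *glp-4*, a gene outside the naming rule that is known as the worm cytosolic valyl-tRNA synthetase and was looked up after the other values were seen, had 102, 87.0 and 85.8 CPM in *pri-1* RNAi embryos, against 122, 166 and 121 CPM in EV embryos. Its *pri-1* RNAi libraries were all lower, at a log2 fold change of -0.56 ± 0.22 (SE, adjusted p = 0.0967), the opposite side of 0 from most cytosolic synthetases. The log2 ratio of *glp-4* over *vars-1* within a library differed by 0.06 between the groups, with overlapping libraries.

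The 2 compartments were also compared within each library, for the 11 amino acids with a gene of each class, as the log2 ratio of the cytosolic over the mitochondrial gene, which does not depend on how libraries are scaled. The ratio was higher in *pri-1* RNAi embryos for 9 of the 11, with a median difference of 0.86. For serine (*sars-1* over *sars-2*) it was 3.64, 3.49 and 4.03 in *pri-1* RNAi embryos, against 1.39, 1.92 and 2.27 in EV embryos, and the difference was 1.86. For asparagine (*nars-1* over *nars-2*) it was 3.53, 2.89 and 3.70 in *pri-1* RNAi embryos, against 1.46, 1.04 and 2.64 in EV embryos, and the difference was 1.65. For phenylalanine (*fars-1* over *fars-2*) it was 1.84, 1.58 and 2.01 in *pri-1* RNAi embryos, against 1.47, 1.06 and 1.56 in EV embryos, and the difference was 0.44. These were the 3 ratios with every *pri-1* RNAi library above every EV library, each with an exact two-sided permutation p of 0.1, the smallest possible.

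Tyrosine was the opposite case: its ratio (*yars-1* over *yars-2*) was 0.58, 1.29 and 0.79 in *pri-1* RNAi embryos, against 1.58, 1.57 and 2.43 in EV embryos. Here every *pri-1* RNAi library was lower, by 0.98 in the mean (exact permutation p = 0.1). Arginine differed by -0.06, with overlapping libraries. The differences for alanine (2.11), leucine (1.52), glutamate (1.28), isoleucine (0.86), aspartate (0.70) and proline (0.56) were positive, and their libraries overlapped (exact permutation p = 0.2 to 0.5). In all of these but proline, EV replicate 3 was the EV library nearest to or among the *pri-1* RNAi libraries. Over the family of 11 ratios no adjusted p can pass, since the smallest raw p is 0.1.

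**Figure D3:**
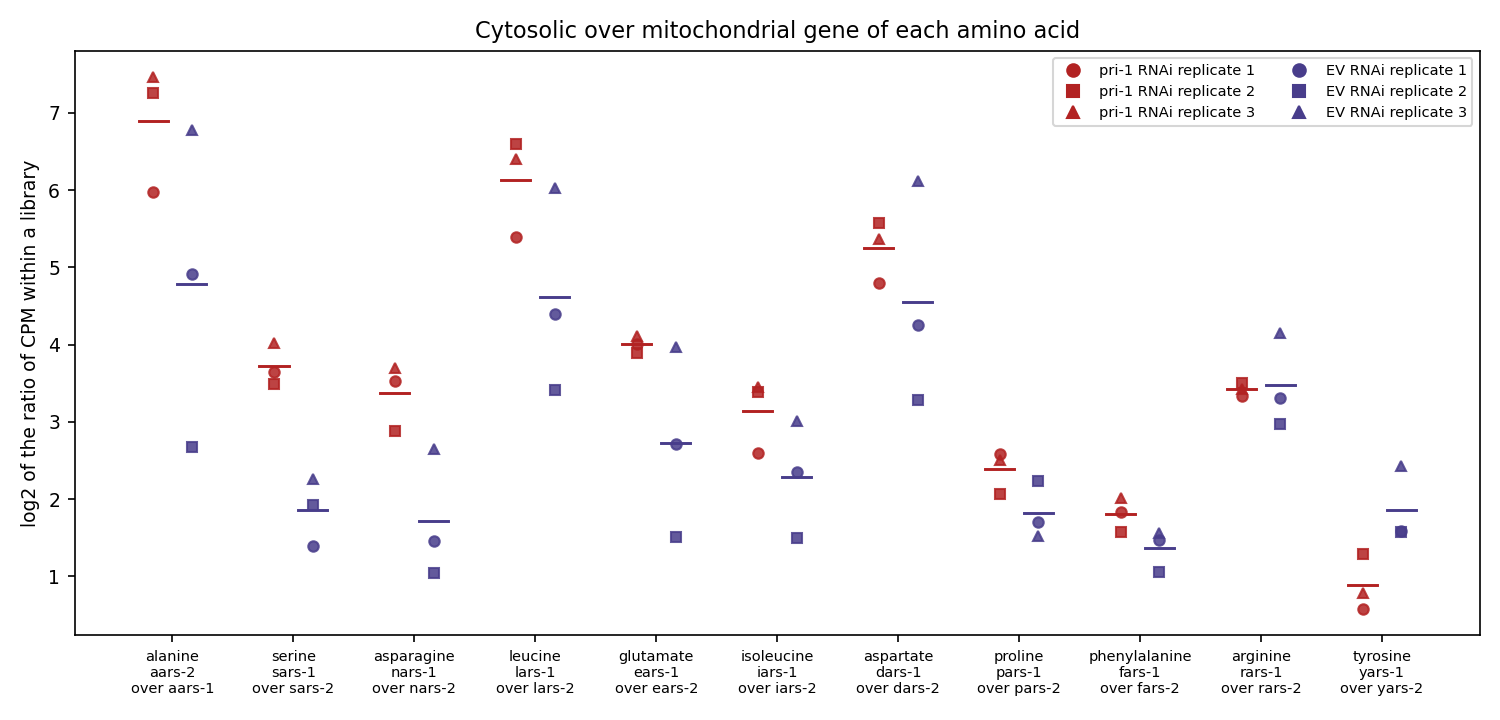
Log2 ratio of the CPM of the cytosolic over the mitochondrial synthetase gene within a library (y) for 11 amino acids (x, by falling difference), with *pri-1* RNAi libraries in red left of EV RNAi libraries in blue-violet, a marker shape for each replicate and a line for the group mean. Red lies wholly above blue-violet for serine, asparagine and phenylalanine and wholly below for tyrosine, and elsewhere the groups overlap.

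Levels of different genes were compared as CPM per kilobase of exon. *sars-1* was the highest synthetase gene in both groups, at 501 ± 73.6 in *pri-1* RNAi embryos and 178 ± 32.9 in EV embryos (SD, n = 3). *dars-1* followed at 292 ± 37.3 in *pri-1* RNAi and 122 ± 45.5 in EV embryos, and then *aars-2* at 247 ± 34.7 in *pri-1* RNAi and 91.5 ± 42.2 in EV embryos. In each group *dars-1* and *aars-2* lay within their spread of each other. *kars-1* was at 76.7 ± 5.59 in *pri-1* RNAi and 90.1 ± 25.5 in EV embryos, where it was level with *aars-2*, and *pars-1* at 69.2 ± 15.9 in *pri-1* RNAi and 76.4 ± 34.0 in EV embryos. The mitochondrial genes ran from *sars-2*, at 44.6 ± 5.89 in *pri-1* RNAi and 57.3 ± 7.56 in EV embryos, down to *lars-2*, the lowest of all 32 genes in both groups (1.96 ± 1.28 in *pri-1* RNAi and 3.56 ± 3.53 in EV embryos).

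Ribosomal protein genes, which also serve one compartment each, were the nearest comparison. Of 77 cytosolic ribosomal protein genes tested, 2 rose and 0 fell, with a median log2 fold change of -0.21, and of 71 mitochondrial ones 0 rose and 5 fell, with a median of -0.36. Over all genes tested, 17.3% rose and 9.94% fell. Of the 71 mitochondrial ones, 23 had every *pri-1* RNAi library below every EV library, beside 19.8% of all genes. The reverse held for 3 of them, beside 25.4% of all genes. In each library the median log2(CPM + 0.5) of a list was taken relative to the EV mean of each gene. For the cytosolic synthetases it was 0.61, 0.47 and 0.68 in *pri-1* RNAi embryos, against -0.01, 0.05 and 0.05 in EV embryos. For the cytosolic ribosomal proteins it was -0.63, 0.14 and -0.10 in *pri-1* RNAi embryos, against -0.11, -0.36 and 0.45 in EV embryos. The synthetase medians were thus apart between the groups, and those of the ribosomal proteins overlapped. The mitochondrial synthetases also overlapped, at 0.33, -0.50 and -0.66 in *pri-1* RNAi embryos, against 0.14, 0.65 and -0.76 in EV embryos.

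**Figure D4:**
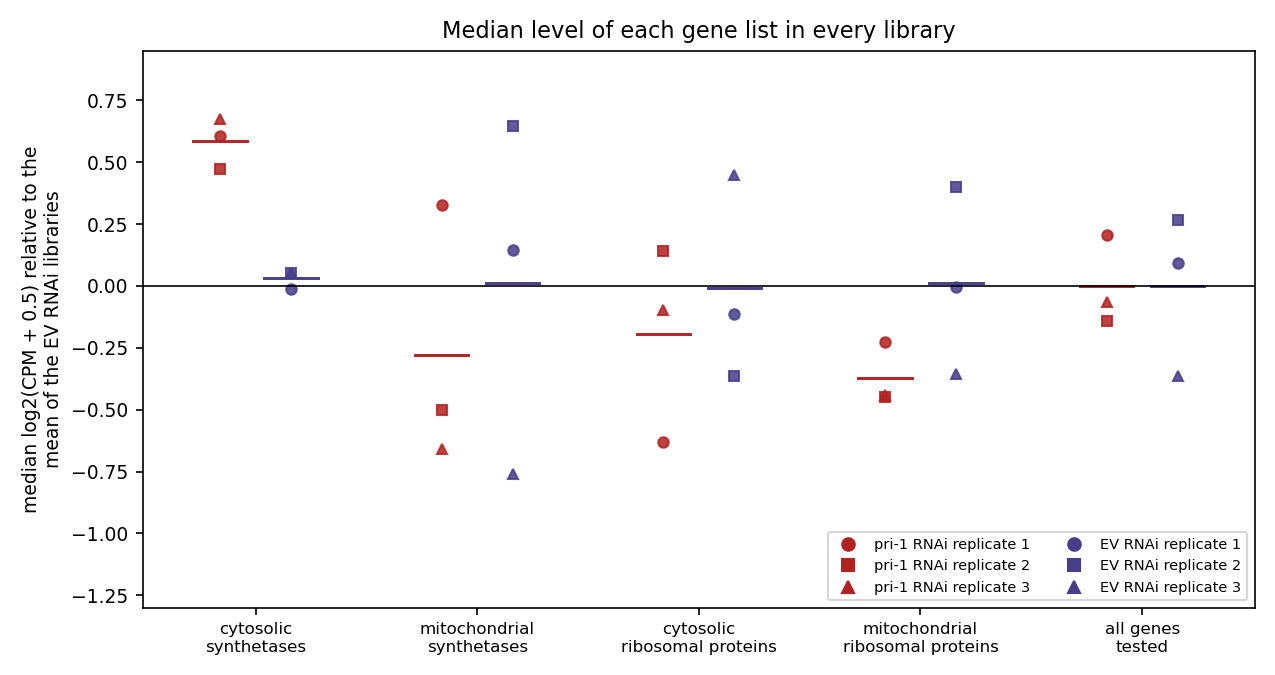
Median log2(CPM + 0.5) of each gene list relative to the EV mean of each gene (y), by list (x), with *pri-1* RNAi libraries in red left of EV RNAi libraries in blue-violet, a marker shape for each replicate and a line for the mean of the 3 libraries. The cytosolic synthetases sit at 0.47 to 0.68 in *pri-1* RNAi embryos and at -0.01 to 0.05 in EV embryos, while the groups overlap in the other 4 lists.

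Genes that act beside the synthetases were taken from lists by function. Of 8 genes that deliver charged tRNA to the ribosome, 1 rose and 0 fell (median 0.34), beside 17.3% and 9.94% of all genes. It was *eef-1A.2*, an elongation factor that carries aminoacyl-tRNA, with 7138, 5408 and 7030 CPM in *pri-1* RNAi embryos, against 2876, 1888 and 2834 CPM in EV embryos (log2 fold change 1.38 ± 0.26, SE, adjusted p = 0.0075). The call was lost without *pri-1* RNAi replicate 3 (adjusted p = 0.0537) and with trimmed-mean scaling or median centring. Its close copy *eef-1A.1* had 8374, 11465 and 10266 CPM in *pri-1* RNAi embryos, against 7270, 4871 and 11201 CPM in EV embryos (0.44, adjusted p = 0.383, and -0.18 with quantile normalization). The copies share most of their coding sequence, and how reads were divided between them is uncertain. The genes of mitochondrial elongation factors, *tufm-2* (-1.07, adjusted p = 0.126) and *tsfm-1* (-0.67, adjusted p = 0.0608), did not pass. Without EV replicate 3, where 20.2% of all genes were lower, both passed as lower (adjusted p = 0.014 and 0.0479), and *tufm-2* also passed with each of the 3 other scalings. *tufm-1*, the more abundant gene of the same factor, had 255, 249 and 244 CPM in *pri-1* RNAi embryos, against 295, 296 and 330 CPM in EV embryos (-0.30, adjusted p = 0.253).

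Of 9 genes that sense uncharged tRNA or lie downstream of that signal, 1 rose and 1 fell (median 0.06), close to the 17.3% and 9.94% of all genes. *asns-2*, an asparagine synthetase gene, had 837, 889 and 877 CPM in *pri-1* RNAi embryos, against 247, 332 and 343 CPM in EV embryos. The groups were far apart (log2 fold change 1.51 ± 0.20, SE, adjusted p = 0.0021), and all 17 other fits called it. Its paralogue *asns-1* fell, with 13.4, 35.7 and 18.5 CPM in *pri-1* RNAi embryos, against 62.9, 36.1 and 75.3 CPM in EV embryos (-1.40 ± 0.43, SE, adjusted p = 0.0466), a call kept in 5 of 17 other fits. It was lost without *pri-1* RNAi replicate 1 or 3 or EV replicate 1 or 3 (adjusted p = 0.071 to 0.163). *eif-2alpha*, the target of kinases that slow translation, was at -0.82 (adjusted p = 0.0528), and passed without EV replicate 2 (-0.98, adjusted p = 0.0257). *gcn-2*, the kinase that binds uncharged tRNA, was at 0.22 (adjusted p = 0.585), and *atf-4*, the transcription factor below it, at -0.32 (adjusted p = 0.277).

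Of 30 genes for tRNA transcription, maturation, export and modification, 1 rose and 1 fell (median -0.21), below the 17.3% and 9.94% of all genes. *xpo-3*, the exporter of tRNA from the nucleus, had 23.8, 23.2 and 20.2 CPM in *pri-1* RNAi embryos, against 63.5, 78.1 and 53.3 CPM in EV embryos. It was lower in every library (log2 fold change -1.50 ± 0.25, SE, adjusted p = 0.0047) and in all 17 other fits. *elpc-3*, the catalytic subunit of the Elongator complex that modifies tRNA, had 161, 102 and 138 CPM in *pri-1* RNAi embryos, against 63.1, 67.6 and 81.8 CPM in EV embryos (0.89 ± 0.25, SE, adjusted p = 0.0311). Its groups were apart as deposited and overlapped after trimmed-mean scaling. The call was kept in 11 of 17 other fits, and was lost with trimmed-mean scaling, median centring or a block by title number (adjusted p = 0.0603 to 0.103) and without *pri-1* RNAi replicate 1 or 3 or EV replicate 1 (adjusted p = 0.111 to 0.143). *elpc-2*, another Elongator subunit, was at -0.80 (adjusted p = 0.0596). *mafr-1*, a repressor of tRNA transcription, was at -0.16 (adjusted p = 0.625) and turned positive with median centring (0.05) and quantile normalization (0.04).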

How the data were processed

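RNA-seq of 3 *pri-1* RNAi and 3 EV RNAi libraries of N2 embryos was used. The authors trimmed reads with Trimmomatic 0.36, quantified them with Salmon 1.4.0 against WBcel235 transcripts from Ensembl and used tximport to sum them by gene. They deposited CPM, and each deposited column adds up to 1000000 without a further scaling factor. Depth was estimated from the step between low CPM values. Of the values up to 20 reads, 93.6% to 95.0% were within 0.02 of a whole read.

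Log2(CPM + 0.5) was tested with limma 3.58.1 (lmFit and eBayes with trend, no covariate, R 4.3.3) for the 14801 genes that reached 0.5 CPM in 3 libraries or more, with Benjamini-Hochberg adjustment and a threshold of 0.05. The script was tested on simulated data. Coordinates and exon lengths came from Ensembl release 115 (WBcel235). Python 3.11.15, pandas 2.3.3 and matplotlib 3.10.9 were used for tables and figures.

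All 32 synthetases may be named. Values in every library were given for each gene past the threshold, the 3 largest changes of each class and the smallest p-values of each pathway list. *xpo-3*, *gcn-2*, *atf-4*, *eef-1A.1* and *mafr-1* were named whatever their values. The members, classes and lists were chosen with earlier results of these data known. Further named genes and the mammalian complex were added after values were seen.

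The 17 other fits were 11 alternatives and 6 that each left out 1 library. The alternatives were pseudocounts of 0.1 and 1, testing genes at all levels or only those averaging 5 CPM, scaling by trimmed means, by medians or by quantiles, eBayes with robust variances or no trend, and a block for the title number or for the library number. A threshold of 0.01 and other class assignments were also tried. Replicate numbers were not taken to pair the libraries, so the fit without a block is reported.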

Additional observations from a re-analysis of the deposited data

How the results depend on the processing

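The counts of 9 cytosolic genes higher, 0 cytosolic genes lower, 0 mitochondrial genes higher and 1 mitochondrial gene lower held with pseudocounts of 0.1 and 1, without a filter on low values, with a minimum mean of 5 CPM and with robust eBayes. In those fits 10.4% to 19.3% of all genes were higher and 7.31% to 10.7% lower. Cytosolic genes higher numbered 4 with trimmed-mean scaling (beside 18.3% of all genes), 5 with median centring (21.7%) and 9 with quantile normalization (16.7%). They numbered 6 without the eBayes trend (16.6%), and 1 to 9 with 1 library left out (9.71% to 19.3%). At an adjusted p under 0.01 they numbered 2, where the share over all genes was not counted. Mitochondrial genes higher numbered 1 with trimmed-mean scaling (*yars-2*, beside 18.3% of all genes). With median centring or quantile normalization they numbered 2 (*rars-2* and *yars-2*, beside 21.7% and 16.7%). They numbered 1 where classes followed gene numbers alone (*aars-2*, beside 17.3%), and 0 to 1 with 1 library left out (9.71% to 19.3%). Mitochondrial genes lower numbered 2 with trimmed-mean scaling (beside 14.4% of all genes), and 0 with median centring (8.55%) or quantile normalization (17.2%). They numbered 0 at an adjusted p under 0.01, and 0 to 3 with 1 library left out (1.84% to 20.2%). Median centring moved the median of all genes to 0.20, and 63.5% of all calls were higher as reported, 56.0% with trimmed-mean scaling, 71.7% with median centring, 49.2% with quantile normalization, 72.5% without a filter and 49.3% with a mean of at least 5 CPM.

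Libraries with the same title number had deviations that correlated at 0.04, -0.32 and 0.46, and those with the same library number at 0.04 and 0.37. Since not every pair was above 0.1, the numbers were not taken to pair them. A replicate block by title number gave 6 cytosolic genes higher and 0 mitochondrial genes lower, in a fit where 14.3% of all genes were higher and 7.05% lower. A block by library number gave 9 cytosolic genes higher (8 of them shared with the fit reported) and 2 mitochondrial genes higher, in a fit where 28.1% of all genes were higher. EV replicate 2 and *pri-1* RNAi replicate 3 shared a library number with no other library, so that the group difference in that fit rested on the remaining libraries. The block moved the median of the mitochondrial class from -0.38 to 0.33, beside 0.23 over all genes. It turned *aars-1* (0.33), *ears-2* (0.13), *lars-2* (0.55), *pars-1* (0.28), *vars-1* (0.59) and *Y105E8A.20* (0.36) positive. The last, a gene that a reference table pairs with the name *mars-2* and that was looked up after the other values were seen, was at -0.59 (adjusted p = 0.6).

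Other signs that turned belonged to genes that did not pass: with median centring *fars-1* (0.0098), *kars-1* (0.019), *pars-1* (0.15), *yars-1* (0.12) and *mafr-1* (0.049), with quantile normalization *eef-1A.1* (-0.18) and *mafr-1* (0.036), and with trimmed-mean scaling *iars-2* (-0.028). With 1 library left out, *aars-1* ranged from -1.17 to 0.15, *ears-2* from -1.29 to 0.048, *iars-2* from -0.40 to 0.52, *kars-1* from -0.42 to 0.0020, *lars-2* from -1.29 to 0.42, *pars-1* from -0.43 to 0.26, *vars-1* from -1.63 to 0.38, *wars-1* from -0.026 to 0.23 and *Y105E8A.20* from -1.42 to 0.18, and the arginine ratio (*rars-1* over *rars-2*) differed by -0.31 to 0.28. EV replicates 2 and 3 set these extremes. The cause of these changes was not tested.

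Count-based tests in edgeR and DESeq2 were not run, since the low values were mostly but not all whole reads, and the smallest value above 0 was not a whole read in 5 of the 6 libraries. With 3 libraries a group the exact test cannot pass 0.05, and depth is large for every synthetase.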
